A study of Mus musculus with 17 samples.

Results

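The genes described here encode the proteases, the proton pump and the membrane proteins of the lysosome, together with a set of its other soluble proteins and the 2 transcription factors Tfeb and Tfe3. They were chosen by name. The rule took every cathepsin symbol except Ctss, every symbol of the vacuolar proton pump (Atp6v and Atp6ap), and 20 named lysosomal genes, and kept those with a count above 0 in at least 1 library. This gave 57 genes of 29594 detected in liver and 55 of 15632 listed in hepatocytes, and 55 were above 0 in both. Another 6 names of the rule, Atp6ap1l, Atp6v1e2, Atp6v1g3, Ctsm, Ctsq and Ctsr, were at 0 in all libraries. After the filter on low counts, 51 were tested in liver and 48 in hepatocytes.

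RNA was sequenced from mouse tissue in 2 experiments on the sphingomyelin synthase family. In the first, 4 wild-type (WT) and 4 SMSrKO libraries, the latter labelled as lacking the synthase-related protein SMSr (gene Samd8), came from the liver of mice after 16 weeks of a high-fat diet with fructose in the drinking water. In the second, hepatocytes were isolated with collagenase from mice 2 months old, with 3 libraries in each of 3 groups. One group was wild type, one had the genotype label Sms1/Sms2-dKO and one the label Sms1/Sms2/Smsr-tKO. The knockout groups are called dKO and tKO below, and both carry the Sms1 and Sms2 lesions (genes Sgms1 and Sgms2), while the tKO adds the SMSr lesion. No diet is given for the second experiment, no age for the first, and how the alleles were made is not given in the sources used here. The question put to these genes was whether the RNA of the lysosome differs with the loss of SMSr alone, of SMS1 and SMS2, and of all 3.

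The lysosome is an acid compartment in which proteins, lipids and glycans are broken down. The vacuolar proton pump acidifies it: the V1 part in the cytosol splits ATP, the V0 part in the membrane carries protons, and acid in turn activates cathepsins and other hydrolases. Many of these genes are known targets of the transcription factors TFEB and TFE3, which bind a short promoter motif that contains the E-box CACGTG. In hepatocytes lysosomes clear autophagic cargo and lipoprotein lipids, sphingomyelin among them.

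The liver libraries held 24391627 to 47351126 counts, and the hepatocyte libraries 9221488 to 9665309 expected counts. RNA levels of the targeted genes did not check the labels, so each group is the set of libraries labelled that way. Samd8 ran from 50.3 to 59.0 CPM (counts scaled to a common library size) in SMSrKO liver against 38.0 to 51.7 in WT, and from 97.6 to 103 in tKO hepatocytes against 66.0 to 73.1 in WT. Sgms1 was at 85.1 to 96.2 CPM in dKO and 55.6 to 62.2 in tKO against 45.9 to 52.2 in WT, and Sgms2 at 133 to 164 in dKO and 144 to 157 in tKO against 175 to 191 in WT. Counts cover whole genes, so a partial deletion could be missed, and reads by exon were not examined. The labels give sWAT as the RNA source in the extraction text of the SMSrKO experiment, but its libraries held liver RNA: 12 hepatocyte markers summed to 73500 to 102653 CPM and 5 adipocyte markers to at most 2.55. Liver library WT 1 stood apart on principal component 1, at −45.5 against −2.29 to 14.5 for the other 7. For hepatocytes the labels give 3 mice per group. For liver they do not say whether each library is 1 animal, so its p-values may reflect technical spread alone. Replicates varied by 20.3% in liver and by 3.52% in hepatocytes (edgeR's common coefficient of variation beyond counting error). Whether the smaller figure holds the full spread between mice was not tested, so hepatocyte p-values may also rest on too small a spread.

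The E-box was looked for in the RefSeq promoter windows of the GRCm38.p6 build, each running from 250 bases before to 50 after a gene's start. Windows were found for 45 of the 57 genes. The letters CACGTG, which read the same on both strands, stood in 13 of the 45 (28.9%), against 8.09% of the 27025 genes with a window and 12.1% of the 9095 that were also tested in hepatocytes. The longer GTCACGTG, searched on both strands and always containing CACGTG, stood in 8 of the 45 (17.8%), against 2.55% and 4.95%. The palindrome of 10 bases that adds AC to it stood in 0 of the 45, against 0.37% and 0.825%. Stretches of 60 bases are shown for the 8 genes with GTCACGTG and for Atp6v1a, which has the shorter motif and a large fold change, each read 5′ to 3′ on the gene's own strand with CACGTG in capitals.
Lamp1: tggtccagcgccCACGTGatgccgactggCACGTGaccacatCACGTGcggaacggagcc
Mcoln1: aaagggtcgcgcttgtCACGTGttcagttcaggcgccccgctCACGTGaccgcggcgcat
Ctsa: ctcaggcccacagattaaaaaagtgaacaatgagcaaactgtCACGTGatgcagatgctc
Ctsd: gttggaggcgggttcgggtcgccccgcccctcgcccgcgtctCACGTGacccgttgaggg
Atp6v0b: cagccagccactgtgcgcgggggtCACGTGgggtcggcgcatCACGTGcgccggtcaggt
Atp6v0d1: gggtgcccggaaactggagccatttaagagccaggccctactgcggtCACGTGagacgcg
Naglu: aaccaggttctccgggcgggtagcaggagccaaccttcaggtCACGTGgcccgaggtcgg
Arsa: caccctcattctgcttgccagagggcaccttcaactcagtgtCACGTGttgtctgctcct
Atp6v1a: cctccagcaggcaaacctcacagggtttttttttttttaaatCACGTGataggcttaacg

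In GRCm38 these lie, on the plus strand, at chr8:13159104-13159163 (Lamp1), chr8:3500432-3500491 (Mcoln1), chr2:164833719-164833778 (Ctsa) and chr11:101069979-101070038 (Naglu). On the minus strand they lie at chr7:142387908-142387967 (Ctsd), chr4:117887330-117887389 (Atp6v0b), chr8:105566055-105566114 (Atp6v0d1), chr15:89477423-89477482 (Arsa) and chr16:44139373-44139432 (Atp6v1a). Lamp1 has 4 copies in its window, with first bases at −61, −45, −28 and −15 from the start, and the stretch holds the last 3. Matches of Ctsd stood at −245 and −98, and its stretch holds the one at −98. Those of Ctsa stood at −12 and 6 from a start, and its stretch holds the one at −12. A match is a run of letters, and no binding was measured here. Of the 13 genes with CACGTG, 11 were higher and 1 lower in tKO than in WT hepatocytes, with a median log2 fold change of 0.41 and a range of −0.29 to 1.31. Of the 26 tested genes whose window lacked it, 19 were higher and 1 lower, with a median of 0.32 and a range of −1.03 to 0.93. The ranges of the 2 sets overlapped over most of their length. Of all 11471 genes tested in this comparison, 25.6% were called higher and 21.8% lower.

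Levels between genes were compared per length, on the TPM scale deposited for liver and the FPKM scale deposited for hepatocytes, which were normalized separately. In WT liver the prosaposin gene Psap, whose product is cut into sphingolipid activator proteins, had the highest level at 802 ± 202 TPM (SD, n = 4). It was followed by the membrane protein Lamp1 (574 ± 76.6), the cysteine cathepsins Ctsl (525 ± 56.0), Ctsz (486 ± 62.6) and Ctsb (449 ± 60.03), and the aspartic protease Ctsd (307 ± 55.3). Lamp1 and Ctsl differed by less than the spread between libraries, while Psap lay above both by more than its SD. In WT hepatocytes Ctsl stood first at 531 ± 1.25 FPKM (SD, n = 3), followed by the proton-conducting ring subunit Atp6v0c (304 ± 10.1), Ctsd (250.03 ± 2.91), Ctsb (230.4 ± 3.29) and Lamp1 (228 ± 1.81). Ctsb and Lamp1 differed by less than their SD. Tfeb stood at 2.99 ± 0.441 FPKM and Tfe3 at 40.7 ± 1.15.

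Genes known from other tissues were at or near 0 in the hepatocyte files. The kidney and epididymis pump subunits Atp6v1b1, Atp6v0a4 and Atp6v1c2 had 1, 2 and 4 expected counts over the 9 libraries, and Ctse and Ctsj had 6 and 4. The osteoclast protease Ctsk had 42, of which 28 were in dKO, and the lymphocyte protease Ctsw had 15. In liver Atp6v1b1, Atp6v0a4, Atp6v1c2 and the pseudogene Atp6v0c-ps1 had 3, 7, 5 and 1 counts over 8 libraries. None of these low genes was tested, apart from Ctse, Ctsk and Ctsw in liver.

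In hepatocytes most of the lysosomal genes were higher in both knockout groups than in WT, and more so in tKO. Their RNA together took 8661, 8568 and 8608 CPM in the 3 WT libraries, 10707, 10780 and 11046 in dKO, and 11482, 11721 and 11802 in tKO. No group overlapped another. The proton pump genes summed to 1615 ± 18.4 CPM in WT, 2006 ± 40.1 in dKO and 2292 ± 20.1 in tKO (SD, n = 3 each). The cathepsins summed to 3957 ± 24.995, 5171 ± 64.6 and 5132 ± 30.4, so that dKO and tKO differed by less than their spread. The other members summed to 3041 ± 39.7, 3667 ± 87.1 and 4244 ± 129.

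**Figure D1:**
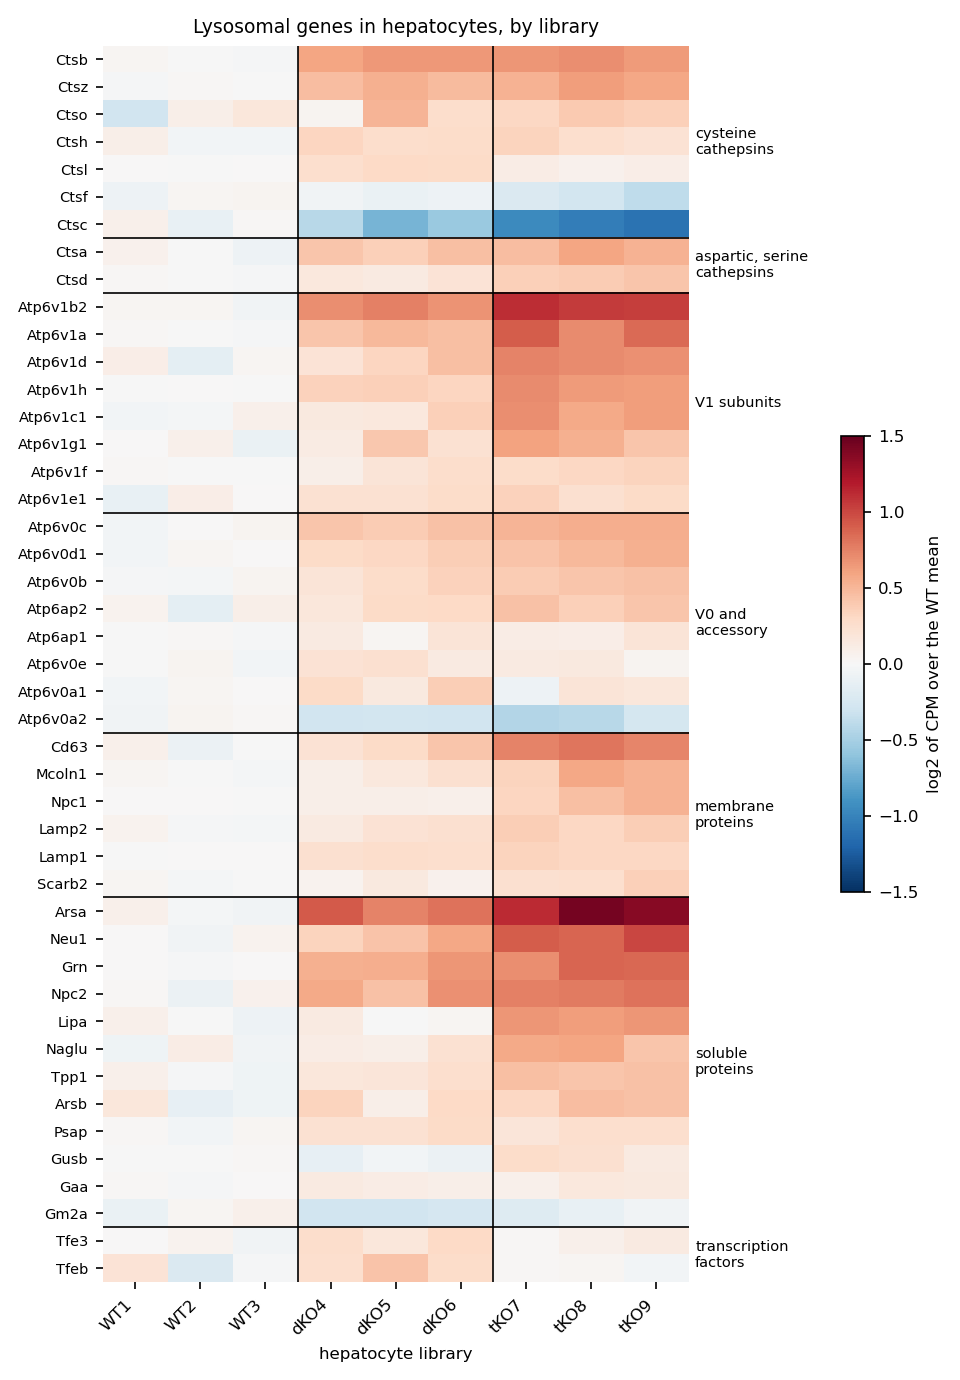
Each row is a lysosomal gene with a mean of at least 5 CPM in hepatocytes (45 genes, by role) and each column a library. Color gives the log2 of its CPM over the WT mean, red for higher and blue for lower; most rows are red in dKO and deeper red in tKO, while Ctsc, Ctsf, Atp6v0a2 and Gm2a are blue in both.

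The same libraries differed in markers of other cell types. The 18 macrophage markers, all of them above 0 in at least 1 library, summed to 29.1 to 30.1 CPM in WT, 124 to 153 in dKO and 123 to 135 in tKO. Mpeg1, which encodes perforin-2, made up most of this, at 28.0, 122 and 116 CPM. Aif1, C1qc, Ccr2, Cx3cr1 and Vsig4 were at 0 in every WT library, and Cx3cr1 in every dKO library. The 12 endothelial markers summed to 28.3 to 31.4, 178 to 195 and 103 to 111 CPM, and the 11 stellate cell markers to 16.4 to 20.3, 61.5 to 66.0 and 37.0 to 41.1. The 6 bile duct markers summed to 246 to 261 CPM in WT, 373 to 395 in dKO and 249 to 266 in tKO. Of these, Sox9 stood at 77.6, 206 and 163 CPM and Spp1 at 176, 177 and 90.7. The 12 hepatocyte markers summed to 83760 to 84923 CPM in WT, 69342 to 70356 in dKO and 61710 to 63805 in tKO. In such mixed libraries fewer cells of a type and less RNA per cell cannot be told apart, and the part of these cells in the lysosomal differences was not tested. Neutrophil and lymphocyte markers stayed at or below 1.51 CPM in every hepatocyte library.

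**Figure D2:**
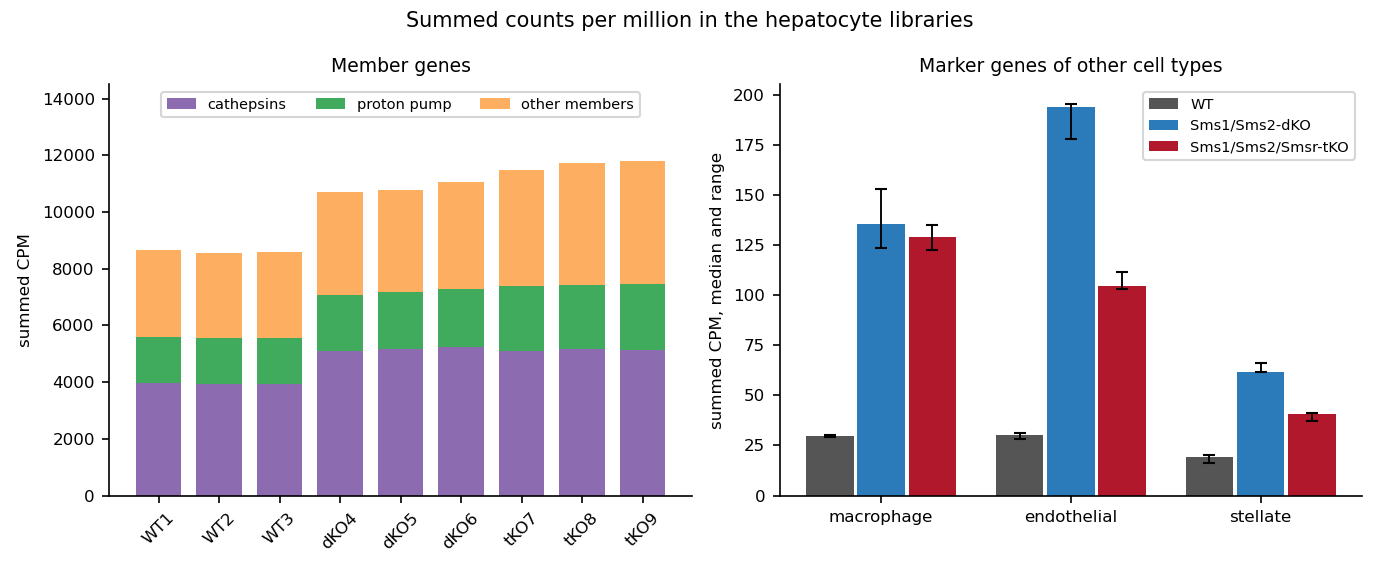
Left, bars stack the summed CPM of the cathepsins, the proton pump genes and the other members in each hepatocyte library. Right, bars give the median summed CPM of macrophage, endothelial and stellate cell markers per group, with lines from the lowest to the highest library; the stacked totals lie in the order WT, dKO, tKO, while the endothelial and stellate sums were highest in dKO.

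The comparison of dKO with WT hepatocytes asks what the loss of SMS1 and SMS2 changes. Of 48 lysosomal genes tested, 34 were higher in dKO and 3 lower, where 44% of all 11471 genes were called, 24% higher and 20% lower (edgeR's quasi-likelihood test, adjusted p under 0.05). Their median log2 fold change was 0.25, against −0.01 over all genes. The 3 lower genes were Ctsc, Atp6v0a2 and Gm2a. When the liver libraries' dispersion was imposed on these data (edgeR's likelihood ratio test), 2 members, Arsa and Atp6v1b2, were called higher and 0 lower, against 7.58% and 1.62% of all genes (9.2% in both directions). At an unadjusted p under 0.05 in the quasi-likelihood test 37 were higher and 3 lower, with 50.1% of all genes past it. DESeq2 called 30 higher and 3 lower, with 29.7% of all genes called. The dKO libraries lay wholly above WT for 36 members and wholly below for 4, against 26.7% and 25.1% of all genes (51.9% in both directions).

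The comparison of tKO with WT shares its WT libraries with the one before. Here 37 of 48 were higher and 3 lower (Ctsc, Atp6v0a2 and Ctsf), with 47.4% of all genes called, 25.6% higher and 21.8% lower, and the median log2 fold change was 0.39 against 0.00 over all genes. With the liver dispersion 8 members were called higher, namely Arsa, Neu1, Atp6v1b2, Atp6v1a, Atp6v1d, Grn, Npc2 and Cd63, and Ctsc lower, against 7.65% and 3% of all genes (10.6% in both directions). Without the liver dispersion, tKO libraries lay wholly above WT for 37 members and wholly below for 3, against 27.8% and 25.6% of all genes (53.4%), and the same 37 and 3 counts held at an unadjusted p under 0.05 (53.1% of all genes). DESeq2 called 36 higher and 2 lower (32.9% of all genes).

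The added loss of SMSr is addressed by tKO against dKO, where 25 of 48 were higher and 4 lower (Ctsc, Ctsl, Atp6v0a1 and Tfe3), with 29.5% of all genes called, 14.3% higher and 15.2% lower, and a median of 0.14 against 0.00. With the liver dispersion 0 members passed in either direction between tKO and dKO (edgeR's likelihood ratio test, 0.959% and 1.88% of all genes, 2.84% together). In the quasi-likelihood test 29 were higher and 5 lower at an unadjusted p under 0.05, with 38.5% of all genes past it, and DESeq2 called 21 higher and 4 lower (18.7% of all genes). The tKO libraries lay wholly above dKO for 28 members and wholly below for 5, against 19.6% and 20.2% of all genes (39.8%).

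The 3 groups stood in the order WT, dKO, tKO without overlap for 24 of the 48 genes (50%), against 5.08% of all genes tested. This held for 6 of 6 membrane proteins, 7 of 9 V1 subunits, 4 of 10 V0 and accessory genes, 5 of 12 soluble proteins, both aspartic and serine cathepsins, and 0 of 7 cysteine cathepsins. Only Ctsc among the members stood in the reverse order, which 3.49% of all genes did.

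**Figure D3:**
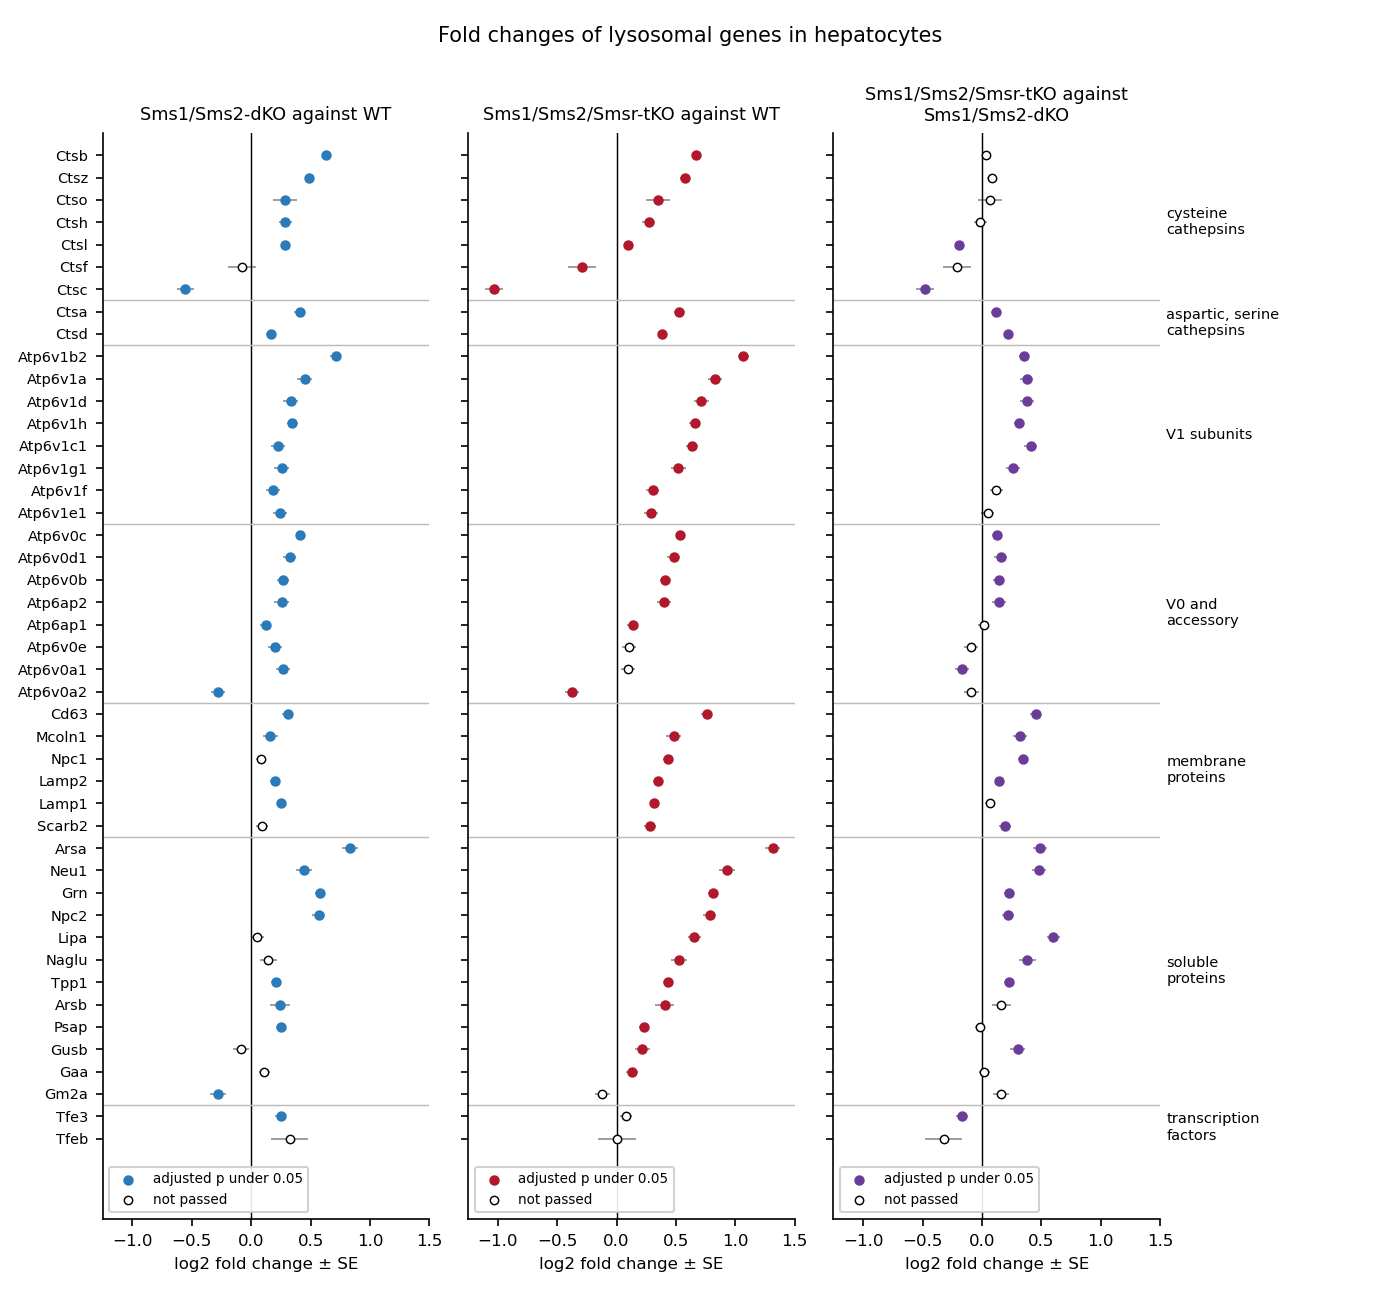
Points give log2 fold changes with their SE (horizontal lines) for 45 lysosomal genes in 3 comparisons of hepatocyte groups, filled where edgeR's adjusted p was under 0.05 and open where not. The V1 subunits and membrane proteins lie to the right of 0 in all 3 panels, while the cysteine cathepsins lie near or left of 0 between tKO and dKO.

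Cysteine cathepsins are the main protein-cutting enzymes of the lysosome. In dKO 5 of 7 tested were higher and 1 lower, and in tKO 5 were higher and 2 lower. Between tKO and dKO none was higher and 2 were lower. Counts by role, here and below, stand beside the shares of all genes. Against WT these were 24% higher and 20% lower in dKO, and 25.6% and 21.8% in tKO. Between tKO and dKO they were 14.3% and 15.2%, and the counts of these 7 cathepsins are too few to set apart from that. Ctsb, an endo- and exopeptidase, had 1112, 1086 and 1077 CPM in WT, 1646, 1713 and 1716 in dKO, and 1725, 1775 and 1693 in tKO. Both knockout groups lay above WT and overlapped each other, with log2 fold changes of 0.63 ± 0.0346 (SE) and 0.67 ± 0.0346 (edgeR adjusted p = 4.98e-28 and 1.71e-29). The carboxypeptidase Ctsz rose by 0.49 ± 0.0409 in dKO and 0.57 ± 0.0407 in tKO.

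Ctsl, an endopeptidase and the most abundant member per length in hepatocytes, was highest in dKO. Its CPM was 1849, 1846 and 1848 in WT, 2202, 2275 and 2259 in dKO, and 1997, 1926 and 1985 in tKO. The 3 groups did not overlap, and tKO was higher than WT by 0.09 ± 0.0334 but lower than dKO by −0.19 ± 0.0333 (edgeR adjusted p = 0.0179 and 3.07e-06). The call of Ctsl against WT ended without WT 2 or WT 3 (edgeR adjusted p = 0.0575 and 0.0506). Ctsh, an aminopeptidase, rose by 0.28 ± 0.0544 in dKO and 0.27 ± 0.0542 in tKO, with no call between these 2 groups (−0.01 ± 0.0528). Ctso, a less studied member, was called at 0.28 ± 0.102 in dKO, where its libraries overlapped WT, and at 0.35 ± 0.101 in tKO. Without WT 1 the tKO value for Ctso was 0.23 and the call ended (edgeR adjusted p = 0.0814).

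Ctsc, the dipeptidyl peptidase that activates granule serine proteases of immune cells, went the other way. Its CPM was 63.5, 55.7 and 60.9 in WT, 44.8, 37.1 and 40.7 in dKO, and 31.1, 29.1 and 27.8 in tKO. All dKO libraries lay below WT and all tKO libraries below dKO. It fell by 0.55 ± 0.071 log2 in dKO, by 1.03 ± 0.0745 in tKO, and by 0.48 ± 0.0788 between them (edgeR adjusted p = 2.76e-10, 2.79e-21 and 6.78e-07). Macrophages, which also express Ctsc, had markers that were higher in these same knockout libraries, and their part in its level was not tested. Ctsf had 397, 381 and 343 expected counts per group, and was lower in tKO than in WT by −0.29 ± 0.119 (edgeR adjusted p = 0.038). That call ended with DESeq2 (0.133), library totals (0.0656) or no filter (0.0542), and without WT 2, WT 3, tKO 8 or tKO 9 (edgeR adjusted p of 0.0676 to 0.130).

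The aspartic protease Ctsd and the serine carboxypeptidase Ctsa, which also shields the sialidase Neu1, rose in steps. Ctsd had 489.6, 481 and 476 CPM in WT, 539.8, 528 and 556 in dKO, and 616, 630.4 and 643 in tKO. Ctsa had 155, 148 and 141 CPM in WT, 197, 189 and 202 in dKO, and 203, 223 and 212 in tKO. For both genes the 3 groups did not overlap. The tKO to WT fold change was 0.39 ± 0.0372 for Ctsd and 0.53 ± 0.0464 for Ctsa. The step of Ctsa from dKO to tKO (0.12 ± 0.0451, edgeR adjusted p = 0.0381) was not called with DESeq2 (0.106) or without dKO 4, dKO 5, tKO 8 or tKO 9 (edgeR adjusted p of 0.0624 to 0.210).

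The V1 part of the pump moved nearly as a whole. In dKO 8 of 9 tested V1 genes were higher and none lower, the same counts held in tKO, and between tKO and dKO 6 were higher and none lower. The genes for the catalytic core rose most. Atp6v1b2, the B subunit of most tissues, had 127, 127 and 120.5 CPM in WT, 203, 212 and 199 in dKO, and 269.9, 259 and 258 in tKO. That is 1.64 and 2.09 times WT, with log2 fold changes of 0.71 ± 0.0463 and 1.07 ± 0.0454 (edgeR adjusted p = 1.43e-23 and 4.44e-35). Atp6v1a, the ATP-splitting A subunit, had 55.0, 54.0 and 53.7 CPM in WT, 72.3, 75.9 and 74.4 in dKO, and 102, 88.7 and 98.1 in tKO. Neither gene had overlapping groups.

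The stalk and regulatory subunits rose less. The central stalk subunit Atp6v1d rose by 0.33 ± 0.0647 in dKO and 0.71 ± 0.0622 in tKO. Atp6v1h, which couples V1 to V0, had 119, 119.8 and 119 CPM in WT, 152, 153 and 149 in dKO, and 195, 185 and 184 in tKO, again with no overlap (0.35 ± 0.0477 and 0.66 ± 0.0466). Atp6v1c1, which controls the joining of the 2 parts, rose by 0.22 ± 0.0565 in dKO and 0.63 ± 0.0545 in tKO. Its step from dKO to tKO, 0.41 ± 0.0533, was the largest of the V1 genes (edgeR adjusted p = 9.53e-10). The stalk subunits Atp6v1g1 (0.26 ± 0.0634 and 0.52 ± 0.0617), Atp6v1e1 (0.24 ± 0.0566 and 0.29 ± 0.0561) and Atp6v1f (0.18 ± 0.0559 and 0.30 ± 0.0551) also rose in both. The neuronal isoform Atp6v1g2 stayed near 2 CPM in all groups and did not pass.

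The V0 part was mixed. In dKO 7 of 10 tested V0 and accessory genes were higher and 1 lower, in tKO 5 were higher and 1 lower, and between tKO and dKO 4 were higher and 1 lower. Of these last 5, DESeq2 did not call Atp6ap2, Atp6v0b, Atp6v0d1 or Atp6v0a1 (adjusted p of 0.0616 to 0.171), and the call of Atp6ap2 also ended under most other settings. The ring subunit Atp6v0c had 321, 332 and 342 CPM in WT, 441, 433 and 451 in dKO, and 472, 485 and 485 in tKO, 3 groups without overlap. Its fold changes were 0.41 ± 0.0389 and 0.54 ± 0.0387. Atp6v0d1 (0.33 ± 0.0552 and 0.48 ± 0.0542) and the ring subunit Atp6v0b (0.27 ± 0.0502 and 0.41 ± 0.0494) rose in the same steps. Atp6ap2, the prorenin receptor that helps assemble the pump, had 67.4, 58.6 and 69.1 CPM in WT, 73.4, 79.4 and 80.2 in dKO, and 87.9, 83.3 and 86.4 in tKO. Atp6ap1, the other accessory protein, rose by 0.12 ± 0.0477 and 0.13 ± 0.0475. Atp6v0e was called in dKO (0.20 ± 0.0583) and not in tKO (0.11 ± 0.0585). The tissue-restricted isoforms Atp6v0d2 and Atp6v0e2, at a mean of 1.90 CPM or less in each group, did not pass.

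The a subunits, which set where in the cell the pump resides, differed from each other. Atp6v0a1 was higher in dKO than in WT by 0.27 ± 0.0594, and lower in tKO than in dKO by −0.17 ± 0.0585, with tKO libraries at 78.8, 95.4 and 93.6 CPM overlapping both. Without tKO 7 the latter value was −0.09 (edgeR adjusted p = 0.267), and the call also ended with DESeq2, with library totals (0.0523) and without dKO 4 or dKO 6 (0.0624 and 0.175). Atp6v0a2, the isoform of the Golgi and endosomes, fell. It had 80.6, 85.8 and 84.7 CPM in WT, 68.7, 69.4 and 68.4 in dKO, and 61.8, 62.7 and 69.5 in tKO, with log2 fold changes of −0.28 ± 0.0584 and −0.37 ± 0.0586 (edgeR adjusted p = 3.54e-05 and 9.68e-08). The third isoform, Tcirg1, known from osteoclasts and lysosomes, lies outside the name pattern. It stood at 74.7 ± 3.11 CPM in WT, 126 ± 4.27 in dKO and 129 ± 4.52 in tKO, higher by 0.76 ± 0.0533 and 0.79 ± 0.053.

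All 6 membrane proteins were higher in tKO than in WT, and 4 of 6 in dKO. The tetraspanin Cd63 had 185, 165 and 175 CPM in WT, 202, 213 and 233 in dKO, and 292, 305 and 290.0 in tKO, with fold changes of 0.31 ± 0.0468 and 0.76 ± 0.0457. Lamp1, a major coat protein of the lysosomal membrane, had 496, 499.9 and 501 CPM in WT, 591, 597 and 596 in dKO, and 627, 619 and 619.7 in tKO. Its steps were small and its groups did not overlap, yet tKO and dKO were not called different (0.06 ± 0.0362). Lamp2, its relative with a role in autophagy, rose by 0.20 ± 0.0411 in dKO and 0.35 ± 0.0408 in tKO.

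The cholesterol exporter Npc1 was called in tKO and not in dKO. It had 268, 267 and 265 CPM in WT, 283, 284 and 282 in dKO, and 333, 364 and 383 in tKO. The dKO libraries lay above WT without a call (0.08 ± 0.0426, edgeR adjusted p = 0.0996), and tKO rose above dKO by 0.35 ± 0.0417 (7.13e-11). The calcium channel Mcoln1 rose by 0.16 ± 0.0653 in dKO and 0.48 ± 0.063 in tKO, and Scarb2, the receptor that carries glucocerebrosidase to the lysosome, by 0.28 ± 0.0514 in tKO.

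**Figure D4:**
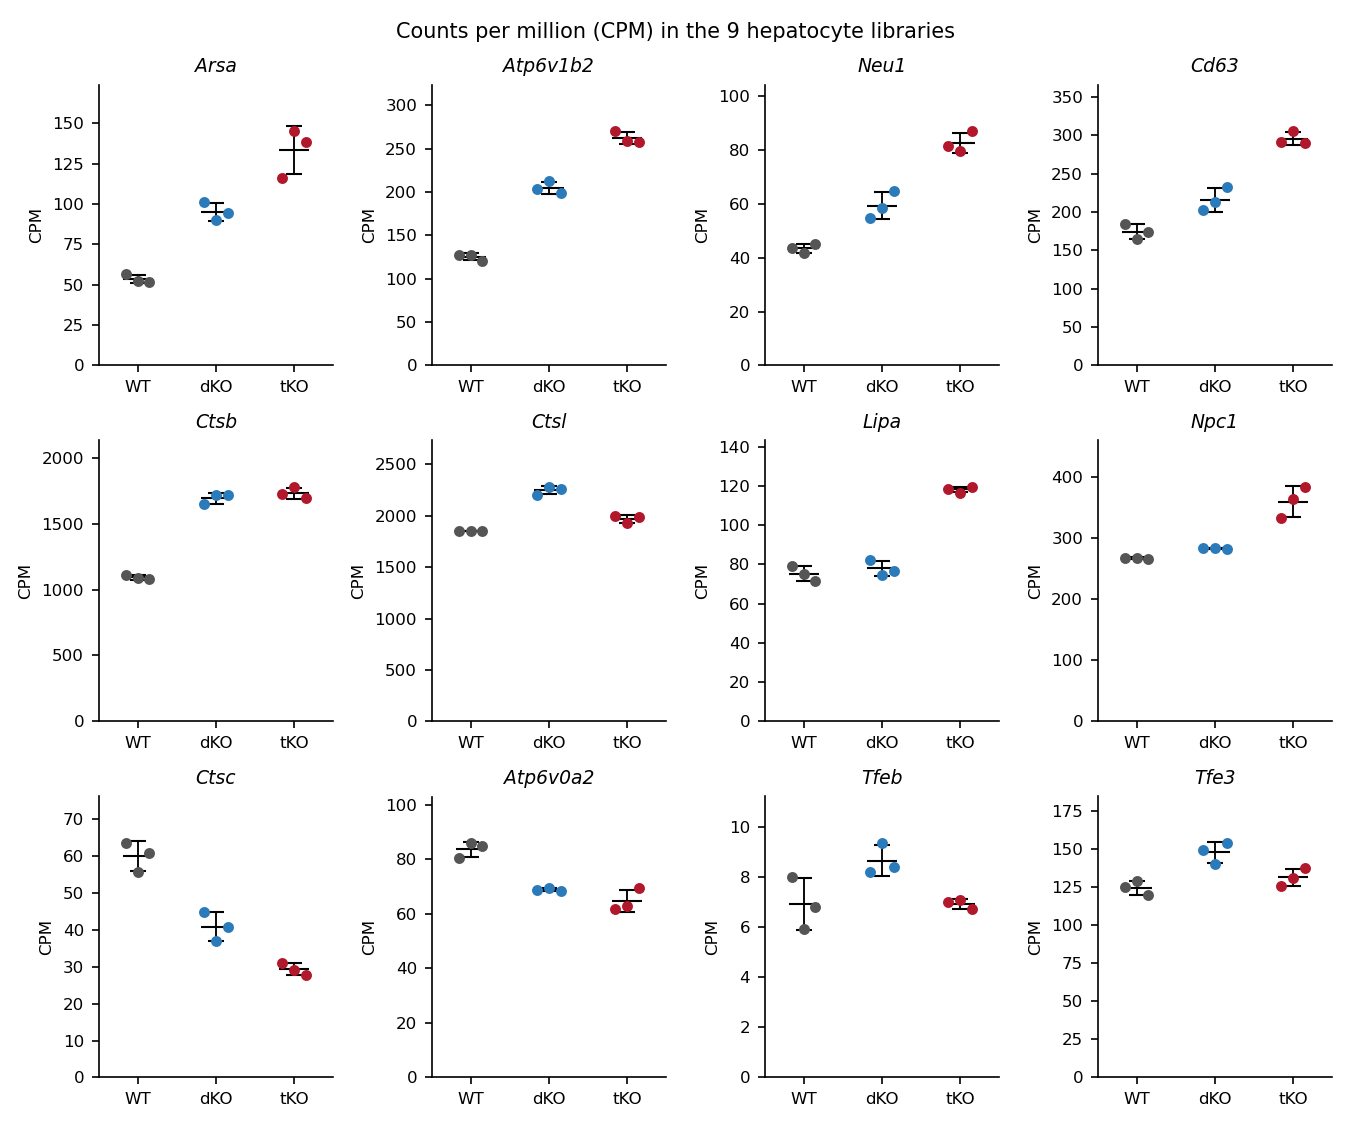
Points give CPM in each hepatocyte library for 12 lysosomal genes, with the group mean and SD as black lines. Arsa, Atp6v1b2, Neu1 and Cd63 climbed from WT to dKO to tKO, Ctsb overlapped between dKO and tKO, Ctsl and Tfe3 were highest in dKO, Lipa and Npc1 were highest in tKO, and Ctsc stepped down.

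Among the soluble proteins 7 of 12 were higher in dKO and 1 lower, and 11 were higher in tKO and none lower. Between tKO and dKO 8 were higher and none lower. Of the fold changes against WT hepatocytes, the largest of any tested member was that of Arsa, arylsulfatase A, which removes the sulfate of sulfatide. It had 56.6, 52.5 and 51.9 CPM in WT, 101, 90.1 and 94.6 in dKO, and 116, 145 and 139 in tKO. No groups overlapped, and the fold changes were 0.83 ± 0.066 and 1.31 ± 0.0633, or 1.78 and 2.49 times WT (edgeR adjusted p = 2.33e-16 and 6.65e-26). The sialidase Neu1 had 43.5, 41.8 and 45.2 CPM in WT, 54.9, 58.4 and 64.8 in dKO, and 81.4, 79.9 and 87.1 in tKO (0.45 ± 0.0679 and 0.93 ± 0.0645).

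Progranulin, encoded by Grn, is made into granulins inside lysosomes. It had 332, 328 and 332 CPM in WT, 480.0, 482 and 523 in dKO, and 535, 603 and 599 in tKO, with fold changes of 0.58 ± 0.0413 and 0.81 ± 0.0411. Npc2, the soluble cholesterol carrier that hands its load to NPC1, had 77.2, 72.0 and 80.0 CPM in WT, 113, 104 and 122 in dKO, and 129, 131 and 134 in tKO. All dKO libraries lay above WT and all tKO libraries above dKO, with a dKO fold change of 0.57 ± 0.056. Psap was level between the knockout groups, at 459, 440.3 and 465 CPM in WT, 534, 532 and 555 in dKO, and 514, 543 and 541 in tKO. Its fold changes against WT were 0.25 ± 0.0381 and 0.23 ± 0.038.

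Lipa, Naglu and Gusb were called higher in tKO than in WT and than in dKO, and were not called between dKO and WT. Lipa, the acid lipase for cholesteryl esters and triglycerides, had 79.3, 74.9 and 71.5 CPM in WT, 82.3, 74.7 and 76.9 in dKO, and 119, 117 and 119 in tKO. WT and dKO overlapped (0.05 ± 0.0575), and tKO was higher than dKO by 0.60 ± 0.054, the largest step of any tested member between these groups (edgeR adjusted p = 5.57e-16). The heparan sulfate enzyme Naglu rose by 0.38 ± 0.0679 from dKO to tKO. Gusb, beta-glucuronidase, rose by 0.30 ± 0.0631. The tripeptidase Tpp1 rose in both, by 0.21 ± 0.0429 and 0.44 ± 0.0423 against WT, and the glycogen-splitting Gaa was called in tKO and not in dKO (0.13 ± 0.0479, with 0.11 ± 0.0482 in dKO). Gm2a, the GM2 activator, had 54.9, 60.1 and 62.0 CPM in WT, 48.2, 48.5 and 49.4 in dKO, and 51.8, 54.4 and 56.7 in tKO. It was lower in dKO (−0.28 ± 0.0659, edgeR adjusted p = 0.000291), and tKO overlapped WT.

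Tfeb and Tfe3, which act on the lysosomal genes as proteins moving to the nucleus, showed small differences in RNA. Tfeb was at 8.003, 5.95 and 6.83 CPM in WT, 8.22, 9.35 and 8.41 in dKO, and 7.02, 7.07 and 6.71 in tKO. It was not called in dKO (0.32 ± 0.157, edgeR adjusted p = 0.0873) or in tKO (0.00 ± 0.162, 0.992), with 635 expected counts over 9 libraries. Tfe3 had 125, 129 and 119.7 CPM in WT, 149.7, 140.2 and 154 in dKO, and 126, 131 and 137 in tKO. It rose by 0.25 ± 0.0493 in dKO and was lower again in tKO (−0.17 ± 0.0488 against dKO), a call that ended without dKO 6 (edgeR adjusted p = 0.0524). Without WT 1, Tfeb was called higher in dKO (0.44, edgeR adjusted p = 0.0421).

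Other genes of the lysosome and of related processes were taken from lists made with earlier results of these data known. Their counts stand beside 24% higher and 20% lower of all genes in dKO, and 25.6% and 21.8% in tKO. Of 33 genes tested from the list of further hydrolases, 18 were higher and 3 lower in dKO, and 20 were higher and 2 lower in tKO, against WT. Asah1, acid ceramidase, rose from 55.2 ± 2.17 CPM in WT to 81.5 ± 1.10 in dKO and 97.9 ± 8.11 in tKO. Hgsnat, which acetylates heparan sulfate in the lysosome, moved both ways, at 379.8 ± 14.8 CPM in WT, 273 ± 17.1 in dKO and 672 ± 21.0 in tKO (−0.48 ± 0.0418 and 0.82 ± 0.0399). Of 26 further membrane proteins, 15 were higher and 7 lower in dKO and 17 higher and 3 lower in tKO. Cd68, also a macrophage marker, had 100.3 ± 7.81, 201 ± 5.96 and 248 ± 16.7 CPM, and the nucleic acid transporter Sidt2 fell by 0.74 ± 0.0395 in tKO.

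Of 27 genes for delivery to the lysosome, 11 were higher and 5 lower in dKO and 14 higher and 3 lower in tKO. Cln6, which helps lysosomal enzymes leave the endoplasmic reticulum, rose by 1.04 ± 0.145 and 1.56 ± 0.135. Of 8 pump genes outside the name pattern, 3 were higher and 1 lower in both comparisons, and of 22 genes that act on TFEB or mTORC1, 9 were higher and 3 lower in both. For these 2 lists the share called in both directions together was not far from that of all genes (44% in dKO and 47.4% in tKO). Their shares higher lay above those of all genes (24% and 25.6%), which for the pump list rests on 3 genes. The median log2 fold change of the pump list was −0.10 in dKO and 0.19 in tKO. That of the TFEB and mTORC1 list was 0.07 and 0.12, against −0.01 and −0.0035 over all genes. The share lower in dKO for the delivery and autophagy lists was near that of all genes (20%). Rragd, a Rag GTPase, stood at 5.58 ± 0.434 CPM in WT, 11.5 ± 0.584 in dKO and 20.5 ± 2.93 in tKO, and rose by 1.87 ± 0.135 in tKO (edgeR adjusted p = 2.32e-21). Of 32 autophagy genes, 14 were higher and 6 lower in dKO and 16 higher and 3 lower in tKO. The cargo receptor Sqstm1 rose by 0.50 ± 0.033 in tKO. Among 6 genes tested from a list of inhibitors of cathepsins and other proteases, 3 were higher in dKO and 4 in tKO. Cstb, which encodes stefin B, an inhibitor of cysteine cathepsins, stood at 319.8 ± 4.56, 483 ± 5.86 and 468 ± 24.3 CPM, and the serpin Serpinb6a at 12.6 ± 0.812, 34.5 ± 1.35 and 87.7 ± 4.07.

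In liver on the diet, SMSrKO and WT differed by a single call among these genes. None of 51 was higher in SMSrKO and 1, Arsb, was lower, where 0.12% of all 15820 genes were called higher and 0.114% lower (edgeR's quasi-likelihood test). These 37 calls among all genes (0.234%) became 109 without WT 1 and 11 to 42 without any other single library, with 11 without WT 4, 13 without SMSrKO 5, 15 without SMSrKO 7 and 23 without WT 3. At an unadjusted p under 0.05, 4 were higher and 7 lower, with 13.1% of all genes past that level. The median log2 fold change was −0.06 against −0.01 over all genes. The summed level of the members was 6870, 8039, 7975 and 8765 CPM in WT and 7201, 7205, 7395 and 8365 in SMSrKO, which overlapped. DESeq2 called 2.81% of all genes, and of the members Arsb and Ctsg lower.

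Arsb, on chromosome 13 (93771679 to 93943016, GRCm38, plus strand), encodes arylsulfatase B, which removes sulfate from dermatan and chondroitin sulfate. Its CPM was 27.5, 26.2, 28.6 and 33.3 in WT and 17.9, 14.6, 16.3 and 17.8 in SMSrKO. All SMSrKO libraries lay below all WT libraries, at 0.576 times their level (−0.80 ± 0.104, edgeR adjusted p = 0.0149). The direction held without any 1 library, but the call ended without WT 3, WT 4, SMSrKO 5 or SMSrKO 7, at adjusted p of 0.0532 to 0.0704. In hepatocytes Arsb was called higher than WT in dKO (0.24 ± 0.082, edgeR adjusted p = 0.0113) and in tKO (0.41 ± 0.08), and was not called between tKO and dKO (0.16 ± 0.0776, edgeR adjusted p = 0.108). The dKO call of Arsb ended with DESeq2 (0.0686) and without WT 2, WT 3, dKO 4 or dKO 6 (edgeR adjusted p of 0.0568 to 0.108).

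**Figure D5:**
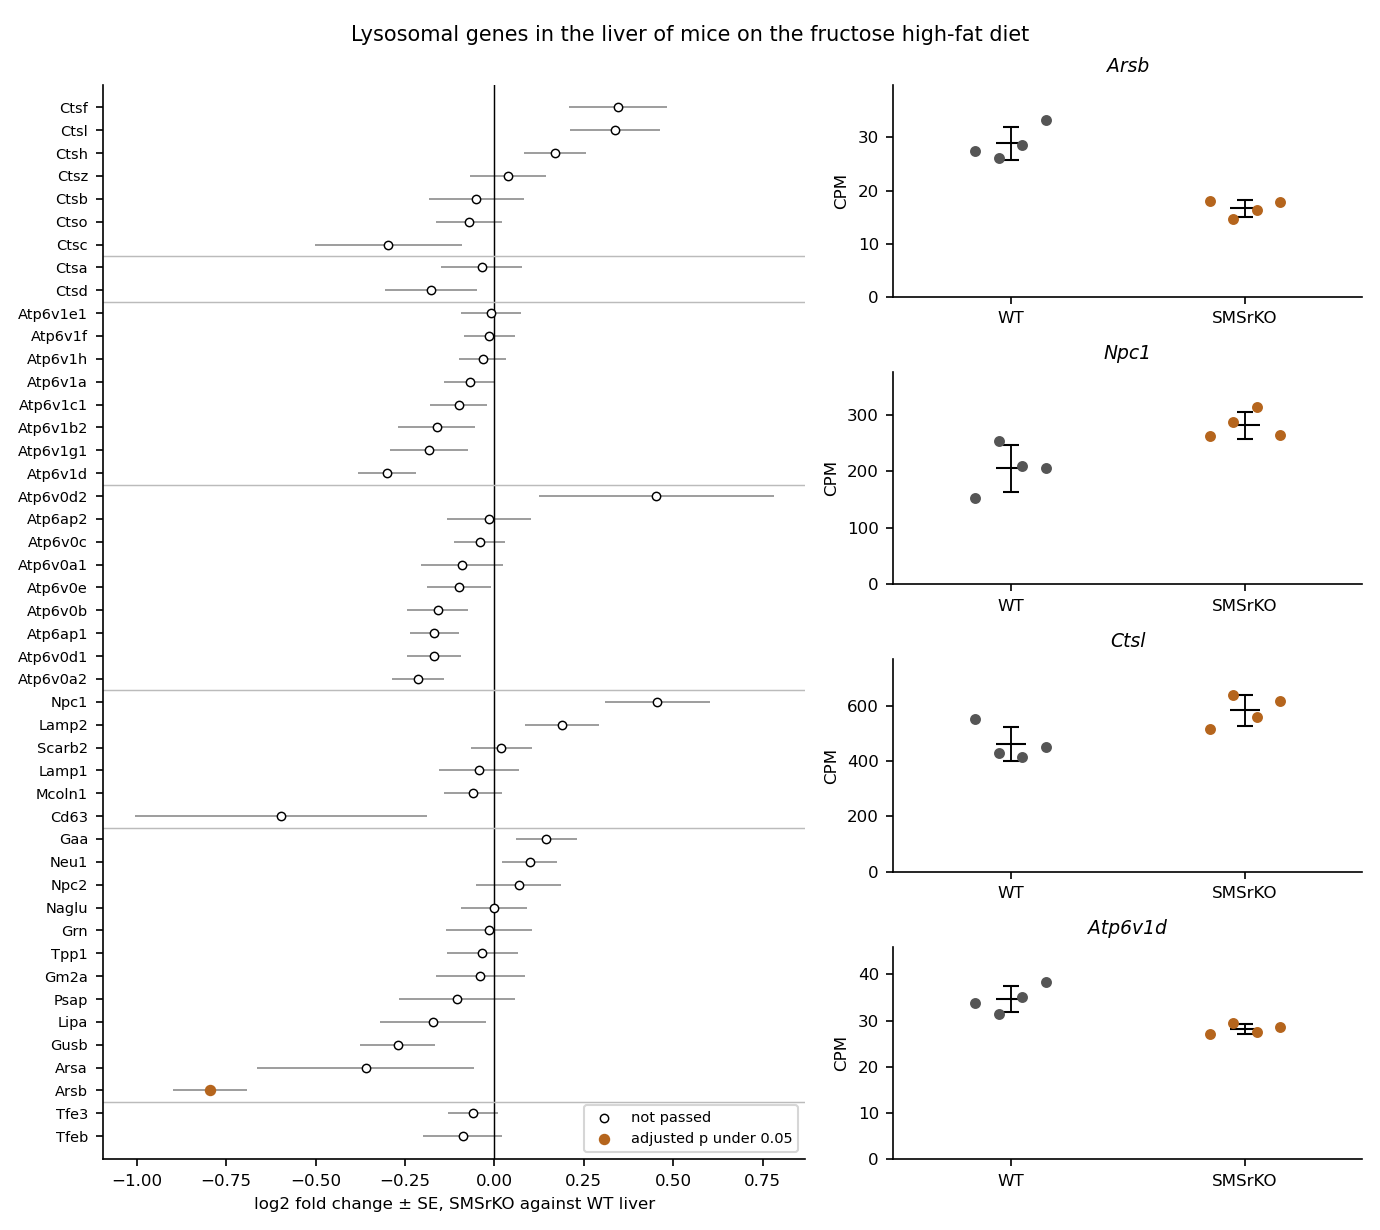
Left, points give log2 fold changes with SE for 46 lysosomal genes between SMSrKO and WT liver, filled where edgeR's adjusted p was under 0.05, which only Arsb passed. Right, points give CPM of Arsb, Npc1, Ctsl and Atp6v1d in each of the 8 liver libraries, with the mean and SD as black lines; the WT and SMSrKO libraries overlap for Ctsl only.

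Groups did not overlap for 4 members that were above WT in SMSrKO, Npc1, Ctsf, Ctsh and Atp6v1g2, and 4 that were below, Arsb, Atp6v1d, Atp6v0a2 and Atp6ap1, against 3.79% and 4.32% of all genes (8.12% in both directions). Npc1 had 152, 254, 209 and 206 CPM in WT and 262, 287, 313 and 264 in SMSrKO (0.46 ± 0.148, edgeR adjusted p = 0.238). Atp6v1d had 33.8, 31.5, 35.0 and 38.3 in WT and 26.98, 29.5, 27.5 and 28.5 in SMSrKO (−0.30 ± 0.0805, 0.168). Neither passed. Of 19 pump genes tested none was called, and 1 was higher and 4 lower at an unadjusted p under 0.05, with 17 of the 19 fold changes below 0 (8255 of 15820 for all genes) and a median of −0.10 (−0.01 for all genes). The pump sums were 888, 976, 917 and 1060 CPM in WT and 834, 820.4, 837 and 915 in SMSrKO, where SMSrKO 8 reached into the WT range.

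Ctsl, Ctsb and Ctsd, the leading proteases, were not called in liver. Ctsl had 553, 429, 416 and 453 CPM in WT and 518, 641, 561 and 619.5 in SMSrKO, with WT 1 inside the SMSrKO range (0.34 ± 0.126, edgeR adjusted p = 0.295). Ctsb differed by −0.05 ± 0.132 and Ctsd by −0.18 ± 0.128. The remaining leading members were close to level: Lamp1 −0.04 ± 0.112, Lamp2 0.19 ± 0.104, Grn −0.01 ± 0.121, Psap −0.10 ± 0.162, Npc2 0.07 ± 0.119 and Lipa −0.17 ± 0.148. Cd63 was uneven within WT, at 9.89, 19.5, 17.0 and 44.2 CPM. A missed threshold at this spread does not show that these levels were equal.

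Liver genes of low count differed in a few libraries. Ctse, an aspartic protease of the stomach and immune cells, had 51, 261, 132 and 193 counts in WT and 53, 57, 62 and 75 in SMSrKO. By CPM, WT 1 lay below the SMSrKO libraries and the other WT libraries above them. Ctse was not called over all 8 libraries (−1.30 ± 0.498, edgeR adjusted p = 0.316) and was called without WT 1 (−1.65, 0.0117). Ctsg, a neutrophil granule protease, had 68, 1, 5 and 12 counts in WT and 0, 0, 0 and 2 in SMSrKO. Most of the Ctsg counts were in WT 1. The 10 neutrophil markers summed to 25.4 to 75.5 CPM in WT and 7.27 to 51.9 in SMSrKO, and their part in Ctsg was not tested. Ctsj, of the placental cathepsin cluster on chromosome 13, had 5, 3, 7 and 5 counts in WT and 0 in all 4 SMSrKO libraries. Against a floor of 3 counts over the SMSrKO group, the 20 Ctsj counts in WT came to 6.14-fold, relative to library totals. This allows for counting error in the SMSrKO group only and takes the WT count as exact. How many of all genes were at 0 in a whole group was not counted.

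Cell type markers in liver moved in part with the groups. The hepatocyte markers summed to 73500 to 81690 CPM in WT and 91778 to 102653 in SMSrKO, without overlap, and the macrophage markers to 1661 to 1901 and 915 to 2372. Alb made up most of the hepatocyte sum, at 43007 ± 6092 CPM in WT and 58719 ± 3149 in SMSrKO. Alb and Cyp2e1 were the only 2 of the 12 hepatocyte markers whose groups did not overlap, and none of the 12 was called. The part of these cell types in the liver values was not tested. The 7 lists of other lysosomal genes and genes of related processes had median log2 fold changes between −0.23 and 0.02 in liver. Gnpda1, a glucosamine-phosphate enzyme placed on the hydrolase list, stood at 30.1 ± 2.13 CPM in WT and 20.4 ± 2.34 in SMSrKO. It was not called (−0.56 ± 0.0998, edgeR adjusted p = 0.0646).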

How the data were processed

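Liver values are gene counts as deposited by the authors, with TPM in a deposited table of the same libraries that could be recomputed from counts and lengths to within 5e-05. Hepatocyte values are expected counts deposited by the authors, of which 6.25% were not whole, with FPKM beside them in the deposited files, which list only genes above 0. Per the submitters' processing notes, Trimmomatic 0.36, STAR 2.5.2b, Bowtie2 2.2.5 and DESeq2 1.30.1 were used, with builds GRCm38 and mm10. No counting tool or strand setting is given in the sources used here, so reads of overlapping or antisense genes cannot be told apart.

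Expected counts were rounded. Each experiment was fitted apart, over all its groups, with edgeR 4.0.16 in R 4.3.3: TMM scaling, filterByExpr with a minimum count of 10, the robust quasi-likelihood test and Benjamini-Hochberg adjustment over all genes tested, with calls at an adjusted p under 0.05. No replicate block was used. SE is the log2 fold change divided by the root of F. The script was tested on simulated data. CPM is TMM-scaled, and summed CPM is relative to library totals. Alternatives were DESeq2 1.42.0, RLE scaling, library totals, no filter, no robust step, pairs of groups alone, the liver dispersion, and each library left out.

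Members, lists and alternatives were chosen with earlier results of these data known. Genes were named by role, as up to 3 called members in each direction with the largest fold and a mean of at least 5 CPM, plus 15 members named always, the 5 liver members with the smallest p, untested members with their counts, and up to 3 genes per list with the smallest p. Ctse, Gusb, Naglu, Scarb2, Tpp1, Gaa, Atp6ap1, Atp6v0e, Atp6v0d2, Atp6v0e2, Atp6v1e1, Atp6v1f and Atp6v1g1 were named after their values were seen. The floor given for Ctsj covers counting error in the SMSrKO group only, while SD and SE values include the spread between libraries.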

Additional observations from a re-analysis of the deposited data

Results flagged for a closer look

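In 4 of 102 groups of 4 liver libraries, 1 library stood farther from the other 3 than Dixon's critical value for 4 values allows, where chance alone gives about 1 in 20. Tfeb was at 14.7 CPM in WT 2, against 16.0 to 16.1 in the other WT libraries. Atp6v1g1 was at 41.2 CPM in SMSrKO 8, against 36.1 to 36.9 in the other SMSrKO libraries. Atp6v0e2 was at 0.261 CPM in SMSrKO 5, against 0.537 to 0.588. Gaa was at 171 CPM in SMSrKO 7, against 147 to 149.

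For 2 genes the groups did not overlap with the SMSr label in liver or in hepatocytes lacking SMS1 and SMS2, and the directions were opposite. Over all genes, groups did not overlap for 8.12% in liver and 39.8% in tKO against dKO. The share of all genes with opposite directions was not counted. Atp6v1d, a stalk subunit of the pump, had a log2 fold change of −0.30 in SMSrKO against WT liver and 0.38 in tKO against dKO hepatocytes. Ctsf, a cysteine cathepsin, had 0.35 and −0.21. Neither gene was called in liver, and Ctsf was not called between tKO and dKO. The difference between the experiments was not tested.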

How the results depend on the processing

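Of 1610 values compared for named genes, 1473 kept their direction and side of the threshold, 114 lost the call, 2 gained it and 21 turned direction, all 21 among values with no call. In liver the 1 lower member became 2 with DESeq2, and 0 to 2 when 1 library was left out: 2 without WT 1, and 0 without WT 3, WT 4, SMSrKO 5 or SMSrKO 7. Given the liver dispersion, members higher and lower numbered 2 and 0 in dKO against WT, 8 and 1 in tKO against WT, and 0 and 0 in tKO against dKO. Members lower in tKO than in dKO numbered 2 to 4 when 1 library was left out, with 2 without dKO 6. Library totals alone moved the share of higher among all liver calls from 51.4% to 38.5%.

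With 1 library left out, log2 fold changes in liver ran from −0.0761 to 0.0772 for Atp6ap2, −0.108 to 0.0294 for Ctsb, −0.0865 to 0.0557 for Grn, −0.103 to 0.00928 for Lamp1, −0.0117 to 0.131 for Npc2 and −0.245 to 0.00411 for Psap. Tfeb in tKO against WT ran from −0.0958 to 0.118, and was −0.00213 with DESeq2 and −0.000828 with RLE scaling. Psap in tKO against dKO ran from −0.0335 to 0.00456, and was 0.00412 with library totals. The cause was not tested. No paired analysis was possible because the groups compared share no replicate numbers in the labels.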
